A study of Mus musculus with 6 samples.

Results

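The transcript of the tumor suppressor p53 (Trp53) and those of 9 genes that p53 directly activates, Mdm2, Ccng1, Zmat3, Trp53inp1, Sesn1, Phlda3, Eda2r, Aen and Btg2, were measured by RNA-sequencing after knockdown of the ETS-family transcription factor Etv5 in a macrophage line. The 10 genes were taken by their symbols, and all 10 were found among the 24786 gene symbols of the expression table. Messenger RNA came from Raw264.7 cells, a mouse macrophage line that the labels trace to an Abelson murine leukemia virus-induced tumor and describe as C57BL/6 and postnatal day 21. Strain and age are repeated from the labels and were not checked. The cells had been infected with lentivirus that delivers a short hairpin RNA, either a control hairpin (group sh-NC) or one that targets Etv5 (group sh-Etv5), and each group has 3 libraries. The labels name Lipofectamine 3000 as present during infection in both groups. The paper calls the sequenced cells stably transfected, and its methods keep infected Raw264.7 cells in puromycin during passage. The time between infection and harvest of these libraries and the shRNA used were not settled by the labels, and nothing states that replicate libraries stem from independent infections. The p-values therefore measure the spread between these libraries, which may be technical.

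p53 is a transcription factor that is kept scarce in unstressed cells because MDM2, a ubiquitin ligase encoded by one of its own targets, drives its degradation. DNA damage, nucleotide shortage, oncogene activity and other stresses release p53 from MDM2, and p53 then binds a paired response element near target genes and activates genes for cell-cycle arrest, cell death, DNA repair and metabolism. Control acts mostly on the p53 protein, which was not measured here, so the level of its direct targets is the usual transcript readout of p53 activity. The comparison asks whether such a response was present in sh-Etv5 cells.

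The p53 response element consists of 2 copies of a 10-base half-site, and it was searched on both strands of promoter windows running from 250 bases before to 50 bases after each RefSeq transcription start (build GRCm38.p6). Windows were found for 8 of the 10 genes, with Aen and Sesn1 having 2 starts each, whereas Zmat3 and Trp53inp1 had no entry. Of the sequences shown, that of Ccng1 holds the best match to the p53 element among these genes, that of Cdkn1a, a classical p53 target outside the 10, gives the match for comparison, and that of Mdm2 holds the ETS motif, the kind of motif that the family of Etv5 binds. Bases in capitals mark the 20-base p53 element in Ccng1 and Cdkn1a and the ETS motif CCGGAAG, read on the other strand as CTTCCGG, in Mdm2. The Ccng1 sequence lies at chr11:40755432-40755511 on the minus strand, the Cdkn1a sequence at chr17:29090898-29090977 on the plus strand, and the Mdm2 sequence at chr10:117710759-117710796 on the minus strand.
Ccng1: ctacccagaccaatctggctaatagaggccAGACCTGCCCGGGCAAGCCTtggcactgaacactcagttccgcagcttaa
Cdkn1a: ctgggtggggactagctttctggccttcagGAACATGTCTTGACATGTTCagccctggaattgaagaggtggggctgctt
Mdm2: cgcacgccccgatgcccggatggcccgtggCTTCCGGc

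The Ccng1 element, from 195 to 176 bases before the start, has 1 mismatch to the p53 response element. An element with at most 1 mismatch was found in 29 of the 32851 promoter windows of all genes (0.0883%), and one with at most 2 mismatches in 262 (0.798%). Ccng1 was the only one of the 8 genes with such a match. A single half-site without mismatch was present in 6 of the 10 windows of these genes, against 8.36% of all windows. The 6 windows belong to 5 genes, Aen, Ccng1, Mdm2, Sesn1 and Trp53, and the half-site of Ccng1 is part of its p53 element. The Cdkn1a element lies 51 to 32 bases before the upstream of its 2 starts and also has 1 mismatch. The ETS motif CCGGAAG on either strand was found in 8.86% of all windows and, among the 8 genes, in Mdm2 alone, from 8 to 2 bases before the start. These are matches of letters in short windows around annotated starts. Elements elsewhere, such as in introns, were not searched.

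**Figure D1:**
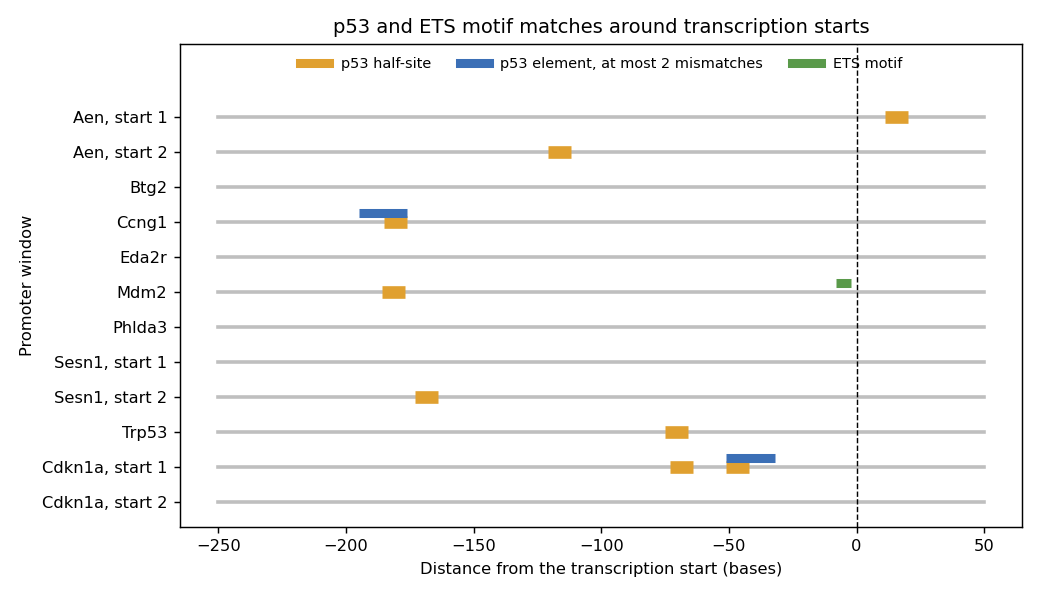
Matches to the p53 half-site, the p53 element with at most 2 mismatches and the ETS motif along promoter windows, with the distance from the transcription start in bases on the x axis and 1 line per window. Among the 8 genes with a window only Ccng1 holds a p53 element, 195 to 176 bases before its start. Cdkn1a, which is no member of the 10, is drawn for comparison.

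The knockdown was visible in the targeted transcript. In RPKM, the reads per kilobase of gene scaled to all mapped reads, Etv5 was 9.18, 9.89 and 9.39 in sh-NC and 5.19, 4.91 and 5.28 in sh-Etv5, a fall of 46.0% with no overlap between groups. Most genes of the table differed between the groups. Of the 10738 genes that reached 1 RPKM in 3 or more libraries, 74.3% had an adjusted p-value under 0.05 (limma on log2(RPKM + 1), Benjamini-Hochberg adjustment over all genes tested), 33.3% as higher and 41% as lower in sh-Etv5. The groups did not overlap for 76.4% of genes, 34.3% with sh-Etv5 above and 42.1% with it below. The median log2 fold change of all genes was -0.05 and the 5th and 95th percentiles were -0.83 and 1.16. Of 8 macrophage markers 7 reached the filter, and their summed RPKM, most of it from Lyz2 (means 2834 and 2041), was 3715 to 3803 in sh-NC and 2686 to 2769 in sh-Etv5. Of the 7, Csf1r, Cd68, Lyz2 and Fcgr1 were lower, Itgam and Adgre1 were 3.77-fold and 4.35-fold higher, and Ptprc was not called, while Mertk lay near 0. None of 23 markers of T cells, B cells, neutrophils, fibroblasts, endothelial, epithelial and fat cells reached it. The highest value of any of these 23 was 0.759, 5 of them were at 0 in every library, and the summed level was above sh-NC in all sh-Etv5 libraries for the endothelial markers (0.171 to 0.363 against 1.09 to 1.24) and the fibroblast markers (0.0112 to 0.0223 against 0.112 to 0.164). The part of these marker levels in the results below was not tested, and in bulk RNA fewer cells of a kind and less RNA per cell cannot be told apart.

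Of the 10 genes, 6 were higher in sh-Etv5 (Mdm2, Ccng1, Zmat3, Phlda3, Eda2r and Btg2), 2 were lower (Trp53 and Sesn1), and 2 did not pass the test (Trp53inp1 and Aen). The shares among all genes tested are 33.3% higher and 41% lower, and the 10 genes were chosen with earlier results of these data known. The same 8 called genes were those whose groups did not overlap, 6 with sh-Etv5 above and 2 with it below, beside 34.3% and 42.1% of all genes. The median log2 fold change of all 10 was 0.46, with a range from -2.14 to 1.49. A rise of more than 1 on the log2 scale was seen for Mdm2 and Phlda3, against 6.23% of all genes, and a fall of more than 1 for Sesn1, against 3% of all genes. Eda2r reached the filter only through the sh-Etv5 libraries and so had to differ to be tested. Without it 5 of 9 genes were higher and 2 lower. The annotated exons of the 10 genes overlap no exon of another gene (GENCODE M21, GRCm38).

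**Figure D2:**
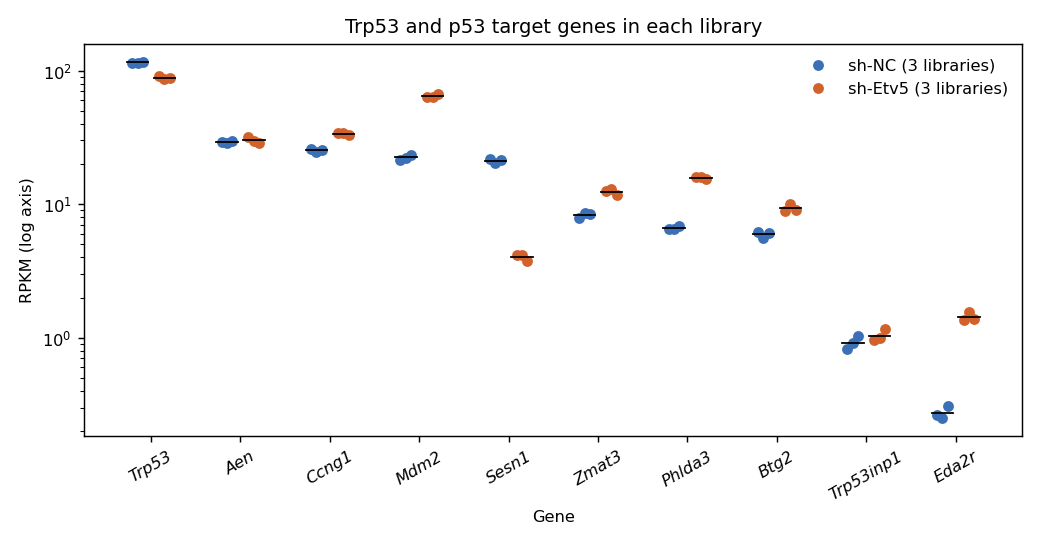
RPKM of the 10 genes in each library on a log axis, with 1 point per library, sh-NC in blue and sh-Etv5 in orange, and a black bar at each group mean. The groups are apart for 8 genes and overlap for Trp53inp1 and Aen, and the widest gaps are those of Eda2r, Sesn1 and Mdm2.

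Trp53 (chr11:69580359-69591873, plus strand) was the most abundant of the 10 transcripts in every library. Its RPKM was 115, 115 and 116 in sh-NC and 91.9, 86.1 and 88.4 in sh-Etv5. All 3 sh-Etv5 libraries lay below all 3 sh-NC libraries, and the mean fell by 22.9% (115 ± 1.03 against 88.8 ± 2.93, SD, n = 3, log2 fold change -0.37, SE 0.0346, adjusted p = 2.05e-06). The size of this difference was ordinary for the table, since 57.2% of all tested genes had a smaller one. Of the 50-base stretches of Trp53 transcripts, 3.88% also occur in another annotated gene, 154 of these 164 in the processed pseudogene Trp53-ps, and reads from these stretches cannot be placed with certainty. The genes whose level followed that of Trp53 most closely over the 6 libraries were Sh3bp2 (Pearson r = 0.9995), Dok2 (0.9995) and Eif3m (0.9991), and 309 genes had an r above 0.99. All 6 points of each correlation share the split between the groups.

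The feedback genes Mdm2 and Ccng1 both rose. Mdm2 (chr10:117688875-117710758, minus strand), which encodes the ubiquitin ligase that degrades p53, had an RPKM of 21.6, 22.3 and 23.2 in sh-NC and of 63.6, 63.8 and 66.6 in sh-Etv5. The 3 sh-Etv5 libraries stood far above the 3 sh-NC libraries and close to each other. The mean was 2.89-fold higher (22.4 ± 0.843 against 64.7 ± 1.68, SD, n = 3, log2 fold change 1.49, SE 0.0408, adjusted p = 1.13e-10), the largest rise of the 10 genes on the log2(RPKM + 1) scale and the 311th of the 10738 genes ordered from the largest rise to the largest fall. The ratio of Mdm2 to Trp53 RPKM within a library was 0.194 ± 0.00580 in sh-NC and 0.729 ± 0.0323 in sh-Etv5 (SD, n = 3). Ccng1 (chr11:40748552-40755311, minus strand), which encodes cyclin G1, a binding partner of a phosphatase that acts on MDM2, had an RPKM of 25.7, 24.8 and 25.6 in sh-NC and of 34.0, 34.1 and 33.0 in sh-Etv5. The groups were apart, but the gap was smaller than that of Mdm2, with a mean 1.33-fold higher (25.4 ± 0.490 against 33.7 ± 0.593, SD, n = 3, log2 fold change 0.40, SE 0.0380, adjusted p = 2.66e-06). Ccng1 carried the only p53 element among the promoter windows of these genes and ranked 2087th of 10738.

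Zmat3 and Btg2, which act on RNA and restrain growth, both rose. Zmat3 (chr3:32334792-32366014, minus strand), which encodes an RNA-binding zinc finger protein, had an RPKM of 7.83, 8.60 and 8.47 in sh-NC and of 12.4, 12.9 and 11.8 in sh-Etv5. Its mean was 1.49-fold higher (8.30 ± 0.407 against 12.4 ± 0.536, SD, n = 3, log2 fold change 0.52, SE 0.0554, adjusted p = 6.05e-06). Btg2 (chr1:134075170-134079120, minus strand), which encodes an antiproliferative protein that recruits mRNA deadenylases, had an RPKM of 6.17, 5.55 and 6.07 in sh-NC and of 8.95, 10.0 and 8.98 in sh-Etv5. Every sh-Etv5 library exceeded every sh-NC library for both genes, as for 34.3% of all genes tested. The Btg2 mean was 1.57-fold higher (5.93 ± 0.333 against 9.32 ± 0.612, SD, n = 3, log2 fold change 0.57, SE 0.0635, adjusted p = 9.01e-06).

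The genes linked to cell death split into a pair that rose and 1 that did not pass the test. Phlda3 (chr1:135766119-135769136, plus strand), whose product competes with the kinase AKT for membrane lipids, had an RPKM of 6.50, 6.53 and 6.86 in sh-NC and of 15.9, 15.9 and 15.3 in sh-Etv5. The libraries of each group lay close together and the groups were far apart, with a mean 2.37-fold higher (6.63 ± 0.196 against 15.7 ± 0.318, SD, n = 3, log2 fold change 1.13, SE 0.0488, adjusted p = 3.88e-09). Eda2r (chrX:97333840-97377216, minus strand), which encodes a receptor of the tumor necrosis factor receptor family, had an RPKM of 0.265, 0.249 and 0.306 in sh-NC and of 1.36, 1.55 and 1.39 in sh-Etv5. The ratio of its means, 5.24, was the largest of the 10 genes, but the level was low in both groups. On the log2(RPKM + 1) scale, which understates the change of low genes, the difference was 0.93 (SE 0.0835, adjusted p = 1.52e-06). Eda2r reached the filter only through sh-Etv5 and had to differ to be tested, so this p is no independent support. With smaller pseudocounts the difference reached 2.35 and passed that of Mdm2, but this size rests on the low sh-NC values. Aen (chr7:78895854-78911209, plus strand), which encodes a nuclease that takes part in apoptosis, had an RPKM of 29.4, 28.6 and 29.6 in sh-NC and of 31.6, 29.6 and 28.8 in sh-Etv5. The groups overlapped, since only the first sh-Etv5 library lay above all sh-NC libraries, and the log2 difference of 0.04 had a 95% interval from -0.06 to 0.13 (adjusted p = 0.464).

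Of the stress genes, Sesn1 fell and Trp53inp1 did not pass the test. Sesn1 (chr10:41809935-41908424, plus strand), which encodes sestrin 1, a stress-responsive restraint on mTORC1 signalling, had an RPKM of 21.6, 20.2 and 21.4 in sh-NC and of 4.15, 4.17 and 3.74 in sh-Etv5. Each sh-Etv5 library lay far below each sh-NC library, and the mean fell by 80.9% (21.1 ± 0.777 against 4.02 ± 0.239, SD, n = 3, log2 fold change -2.14, SE 0.0561, adjusted p = 8.15e-11). This was the largest difference of the 10 genes on the log2 scale, in the direction opposite to that of the other called targets, and it ranked 10713th of 10738 genes ordered from the largest rise to the largest fall. Trp53inp1 (chr4:11156431-11174379, plus strand), which encodes a cofactor of p53 that also takes part in autophagy, had an RPKM of 0.825, 0.905 and 1.02 in sh-NC and of 0.958, 1.00 and 1.15 in sh-Etv5. The groups overlapped at this low level, and the log2 difference of 0.09 had a 95% interval from -0.10 to 0.28 (adjusted p = 0.374).

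**Figure D3:**
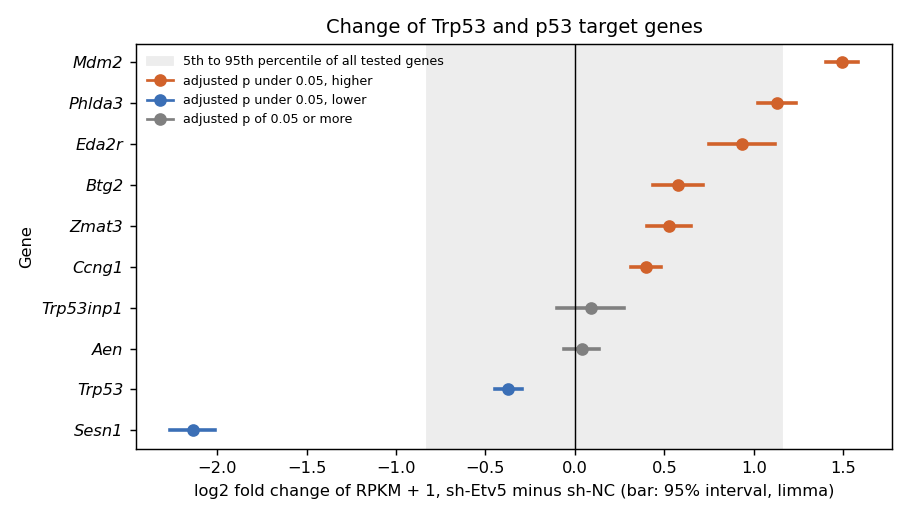
Log2 fold change of RPKM + 1 (sh-Etv5 minus sh-NC) of the 10 genes on the x axis, ordered from the largest rise to the largest fall, with 95% intervals from limma as bars and the 5th to 95th percentile of all tested genes shaded. Mdm2 lies above and Sesn1 below the shaded range, Phlda3 lies just inside it, and the intervals of Trp53inp1 and Aen include 0.

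Levels per gene length could be ordered within each group. In sh-NC the mean RPKM went from Trp53 over Aen, Ccng1, Mdm2, Sesn1, Zmat3, Phlda3, Btg2 and Trp53inp1 to Eda2r, and of these neighbours only the ranges of Mdm2 and Sesn1 overlapped. In sh-Etv5 the order was Trp53, Mdm2, Ccng1, Aen, Phlda3, Zmat3, Btg2, Sesn1, Eda2r and Trp53inp1, with no overlap between neighbours. Mdm2 thus moved from the fourth to the second place and Sesn1 from the fifth to the eighth. An exact permutation test of a single gene with 3 against 3 libraries cannot give a p below 0.1.

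A wider list of 41 further genes described as directly activated by p53, chosen with earlier results of these data known, was described by role. Of the 41, 36 reached the filter. Of these, 20 were higher, 12 lower and 4 not called, with a median log2 fold change of 0.18 and a range from -0.67 to 4.27, beside 33.3% higher and 41% lower for all genes. Above 1 on the log2 scale there were 9 genes, beside 6.23% of all genes, and below -1 there were 0, beside 3% (12 were lower at an adjusted p under 0.05, each by less). The death receptor gene Fas reached the filter only through sh-Etv5 and so had to differ to be tested. Without it 19 of 35 genes were higher and 12 lower, with a median of 0.16 and 8 genes above 1, and 5 of 8 cell death genes were higher and 3 lower. The genes for cell-cycle arrest gave 4 higher and 1 lower of 5 tested, those for cell death 6 higher and 3 lower of 9, those for DNA repair 3 higher and 2 lower of 6, those for metabolism 6 higher and 2 lower of 9, and those for feedback and other roles 1 higher and 4 lower of 7. The median was 1.97 for arrest, 0.57 for cell death, 0.07 for DNA repair, 0.21 for metabolism and -0.14 for feedback and other roles.

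Among the arrest genes, Cdkn1a, which encodes the cyclin-dependent kinase inhibitor p21, had an RPKM of 77.5, 73.8 and 77.8 in sh-NC and of 192, 192 and 184 in sh-Etv5, a 2.47-fold rise (log2 fold change 1.30, SE 0.0352, adjusted p = 1.07e-10). Gadd45a, a stress gene, went from 0.913, 1.23 and 0.899 to 17.5, 16.5 and 18.2 RPKM. Gadd45a and other listed targets also answer to signals other than p53, and which signals acted here was not tested. Plk2 and Plk3, which encode polo-like kinases, went from 4.33 to 5.05 up to 107 to 113 RPKM and from 3.48 to 4.41 up to 18.7 to 19.2 RPKM, respectively. All 4 genes were higher in every sh-Etv5 library than in any sh-NC library, as were 34.3% of all genes tested. Of the annotated exon bases of Cdkn1a and Gadd45a, 7.68% and 19.1% lie across from a gene on the opposite strand, and whether counting used the strand is not stated in the sources used here.

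Among the cell death genes, Bax, which permeabilizes mitochondria, had an RPKM of 200, 187 and 192 in sh-NC and of 290, 287 and 282 in sh-Etv5, a 1.49-fold rise (adjusted p = 5.10e-08). Of its exon bases, 12.2% are shared with Gm45808 on the same strand. Bbc3 and Pmaip1, which encode the BH3-only proteins PUMA and NOXA, rose 4.14-fold and 2.22-fold, from means of 9.18 ± 0.939 and 4.91 ± 0.224 to 38.0 ± 2.14 and 10.9 ± 0.431 RPKM (SD, n = 3). Fas stood at 0.214, 0.507 and 0.225 in sh-NC and at 5.11, 4.29 and 5.21 in sh-Etv5. Ddit4, an inhibitor of mTORC1 among the metabolic genes, rose from 3.73 to 4.12 up to 19.2 to 21.8 RPKM. Sesn2, the relative of Sesn1 and chosen for mention after its values were seen, went the other way from Sesn1, with 5.97, 5.24 and 6.71 RPKM in sh-NC and 25.4, 25.4 and 22.3 in sh-Etv5 (log2 fold change 1.87, adjusted p = 3.18e-09). The ratio of Sesn2 to Sesn1 was thus 0.283 ± 0.0280 in sh-NC and 6.07 ± 0.0872 in sh-Etv5 (SD, n = 3). Perp was listed at 0 in all libraries, and Sfn lay between 0.372 and 0.535 RPKM with overlapping groups. Ptprv lay between 0.415 and 0.589 in sh-NC and between 0.826 and 1.05 in sh-Etv5, Gdf15 between 0.000953 and 0.0430 and between 0.202 and 0.440, and the noncoding RNA Trp53cor1 between 0.201 and 0.236 and between 0.916 and 1.41. For these genes sh-Etv5 lay wholly above sh-NC, beside 34.3% of all genes tested, a share that covers no gene below the filter. Perp, Sfn, Ptprv, Gdf15 and Trp53cor1 all stayed below the filter and were not tested.

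The 12 further targets that were lower, named after their values were seen, were Gtse1 among the arrest genes, Pidd1, Dram1 and Ei24 among those for cell death, Ddb2 and Polh for DNA repair, Pltp and Ak1 for metabolism, and Pml, Ppm1d, Steap3 and Rps27l for feedback and other roles. Pidd1, which encodes a death domain protein, fell from a mean of 7.37 ± 0.274 to 4.26 ± 0.295 RPKM (SD, n = 3, log2 fold change -0.67), and Dram1, a lysosomal gene of autophagy, from 14.3 ± 0.708 to 8.71 ± 0.906 (log2 fold change -0.66). Ddb2, which encodes a sensor of ultraviolet damage, had a log2 fold change of -0.44, and Ppm1d, which encodes a phosphatase that acts on p53 and its kinases, one of -0.41. Gtse1, whose product restrains p53 and which is expressed late in the cell cycle, had one of -0.48.

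**Figure D4:**
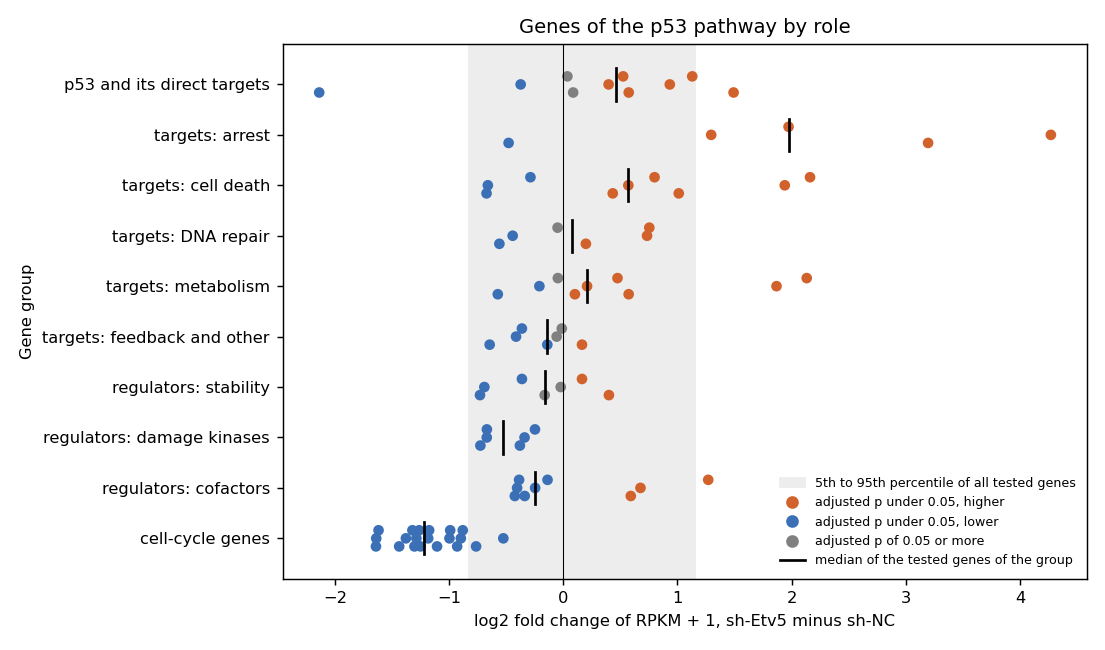
Log2 fold change of RPKM + 1 (sh-Etv5 minus sh-NC) on the x axis for each tested gene of the p53 pathway by role, with 1 point per gene, orange for higher, blue for lower and grey for not called, a black bar at each group median and the 5th to 95th percentile of all tested genes shaded. The arrest targets have a median of 1.97 and reach 4.27, the damage kinases and the cell-cycle genes lie below 0 without exception, and the other groups hold genes on both sides.

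Upstream of p53, 25 genes that modify, stabilize, degrade or bind it, its relatives included, were listed, again with earlier results known. Of these, 22 reached the filter, with 5 higher, 15 lower and 2 not called (median log2 fold change -0.34), beside 33.3% higher and 41% lower for all genes. All 6 kinases that answer to DNA damage or stress, Atm, Atr, Chek1, Chek2, Hipk2 and Prkdc, were lower, with log2 fold changes from -0.73 for Atr to -0.25 for Atm. Usp7 and Usp10, which encode deubiquitinases of the p53 pathway, were lower, with log2 fold changes of -0.73 and -0.69. What their fall means for the p53 protein was not tested. Of the ASPP family of p53-binding proteins, Ppp1r13l, which encodes the inhibitory member iASPP, rose by 1.27 (from 2.24 to 2.86 up to 6.77 to 8.42 RPKM). The other members rose as well, Trp53bp2 by 0.68 and Ppp1r13b, named after its values were seen, by 0.59. Mdm4, the partner of MDM2, lay between 10.3 and 11.1 RPKM in sh-NC and between 11.5 and 12.6 in sh-Etv5 (log2 fold change 0.16, adjusted p = 0.0171), a call that was lost under several other settings. Cdkn2a, which encodes the MDM2 inhibitor ARF and the kinase inhibitor p16, lay between 0 and 0.0427 RPKM in sh-NC and between 0 and 0.399 in sh-Etv5. The p53 relatives Trp63 and Trp73 were listed at 0 in all libraries and at no more than 0.0101, respectively.

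Downstream, p21 is known to silence mitotic genes through the DREAM repressor complex, and 20 such cell-cycle genes were listed. Whether p21 or DREAM acted on these genes here was not tested. All 20 were lower in sh-Etv5, beside 41% of all genes, and 13 fell by more than 1 on the log2 scale, beside 3% of all genes. The median was -1.22 and the range went from -1.64 to -0.52. The list was chosen with earlier results of these data known, so these counts only describe it. Mki67, the proliferation marker, went from 73.6, 73.7 and 75.7 to 22.7, 24.6 and 22.4 RPKM. The log2 fold change was -1.64 for Cenpa, the centromeric histone, -1.62 for Birc5, which encodes survivin, -1.44 for Prc1, a spindle midzone protein, and -1.38 for Cdc20, an activator of the anaphase-promoting complex. Of the exon bases of Prc1, 11.1% lie across from a gene on the opposite strand.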

How the data were processed

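Poly(A) RNA libraries were made with an Illumina kit. The authors deposited RPKM values, reads per kilobase scaled to mapped reads, giving each gene symbol 1 untransformed value in each library (build mm10, per the submitters' processing notes). The aligner, annotation and strand setting are not given in the sources used here. No counts accompany the values, so the depth of each library is unknown and no counting error is given. Summed RPKM was 320462 to 322949 in sh-NC and 330454 to 340257 in sh-Etv5.

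Genes that reached 1 RPKM in 3 or more libraries were tested. log2(RPKM + 1) was compared by limma (version 3.58.1, run in R 4.3.3, eBayes with trend, two-sided, no covariate, all 6 libraries), with Benjamini-Hochberg adjustment over 10738 genes and a threshold of 0.05. Positions came from GENCODE M21, which holds 97.9% of the symbols, and promoter sequences from RefSeq (Python 3.11.15, pandas 2.3.3). The fit was tested on simulated data with 200 of 10738 genes changed. It called 19 of 50 changes of 0.25 on the log2 scale, 44 of 50 of 0.5 and 50 of 50 of 2, with 10 false calls. Far more genes differed in the real data, so the simulation cannot speak to scaling or to independence of replicates.

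The 10 genes and all lists were chosen with earlier results of these data known. Named were the 10 genes, Cdkn1a, Bax, Bbc3, Pmaip1, Fas, Gadd45a, Mdm4, Cdkn2a, the 5 largest changes of each list and genes below the filter, the 3 genes most like Trp53, and Etv5. Alternatives were other pseudocounts, filters and scalings, no trend, untransformed RPKM, a replicate block, each library left out, and minimum sizes of change.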

Additional observations from a re-analysis of the deposited data

How the results depend on the processing

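Of the 8 calls among the 10 genes, those other than Eda2r held under each alternative, minimum sizes of change apart. Trp53inp1 and Aen stayed uncalled wherever they were tested. A mean RPKM of at least 5 left Eda2r and Trp53inp1 untested, and leaving out some libraries left Trp53inp1 untested. Eda2r was called wherever it was tested, but it went untested when any sh-Etv5 library was left out. Those runs could not overturn its call. The log2 difference of Trp53inp1 was -0.0486 with quantile normalization, and that of Aen was -0.0228 with the sums of all libraries set equal and -0.0005 to 0.0643 with a library left out. That of Eda2r ranged from 0.81 to 2.35. Requiring a log2 fold change above 0.5 in either direction left 5 of the 10 genes higher and 1 lower. It left 14 further targets higher and 5 lower, 3 regulators higher and 5 lower, and 20 cell-cycle genes lower. Above 1, there remained 2 of the 10 genes higher and 1 lower, 9 further targets higher and 0 lower, 1 regulator higher and 0 lower, and 13 cell-cycle genes lower. Without a filter, or with a mean RPKM of at least 5, 3 regulators were higher. Mdm4 was not called without a filter (adjusted p = 0.0603), with equal sums (0.117), without sh-NC replicate 1 (0.0718), or without sh-Etv5 replicate 1 (0.0559) or 2 (0.0532). Equal sums moved the median of all genes to -0.10. They gave 16 further targets higher and 12 lower, and 4 regulators higher and 16 lower. With a library left out, 17 to 19 further targets were higher and 11 to 12 lower. The cause of these shifts was not tested. Deviations of libraries with the same replicate number correlated at 0.07, -0.07 and -0.04, so the numbers were not taken as pairs. The replicate block gave 6 of the 10 genes higher and 2 lower, with 3539 genes higher and 4361 lower in all, and it changed no call among the 10 genes. With the block, 19 further targets were higher and 11 lower, and 5 regulators were higher and 14 lower. Without read counts, depth sets an unknown limit on low genes such as Eda2r and Trp53inp1.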
